A study of Mus musculus with 180 samples.

Results

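The small intestine of wild-type mice given bacterial lipopolysaccharide (LPS) was compared with that of wild-type mice given phosphate-buffered saline (PBS), as whole-tissue RNA, across all genes measured. The 8 libraries compared are 4 LPS and 4 PBS libraries, 1 per mouse, of the 180 libraries of the series, which covers 15 tissues of 12 mice. The mice were 6-week-old females, perfused before collection, and the tissue was taken at 12 h. Mice 5 to 8 were C57BL/6J mice injected with 5 mg/kg LPS, a cell wall component of Gram-negative bacteria that activates innate immunity. Mice 1 to 4 were C57BL/6J mice injected with PBS. A further 4 small intestine libraries were of mice 9 to 12 (B6.129S-Tnftm1Gkl/J, which lack TNF in all cells, given the same dose of LPS). They entered the fit to estimate the spread and counted towards the minimum on signal that chose the genes tested. The LPS and PBS means compared do not include them. PBS-treated TNF-deficient mice were not analysed here. The labels do not say which stretch of the small intestine was taken. They give a mouse for each library but no cage or day, so p-values measure the spread between these mice.

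The lining of the small intestine is a single layer of epithelial cells that is renewed from stem cells in the crypts. Absorptive cells move up the villus, and at their brush border they carry enzymes that finish the digestion of sugars, peptides and lipids, beside transporters that take up the products. Paneth cells at the crypt base and goblet cells secrete antimicrobial proteins and mucus. LPS given systemically is known to change this epithelium through cytokines made by immune and stromal cells, among them TNF, type I and type II interferons and IL-22, which acts on epithelial cells through the transcription factor STAT3.

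Values are given as signal, the authors' counts of 3′ transcript ends scaled to an effective library size, which is close to, but not exactly, counts per a fixed total. The 8 libraries held 1407858 to 1743635 counts in LPS mice and 1051216 to 2197197 in PBS mice. A single count was worth 0.575 to 0.680 signal units in LPS mice and 0.525 to 1.01 in PBS mice, so low values rest on few counts. Changes are log2 differences of mean log2(signal + 1), LPS minus PBS, with their standard error (SE), which understates the change of genes with low signal. A gene is called higher ("rose") or lower ("fell") where its Benjamini-Hochberg adjusted p in limma was below 0.05. A minimum on signal left 13271 of 13820 genes to be tested. Of these 1317 rose (9.92% of those tested) and 1774 fell (13.4%), and the median change over all tested genes was 0.00. Counts of members below are to be read against these percentages. The gene lists were chosen with earlier results of these data known, so a count above these percentages is a description, not a test. The groups did not overlap in 2946 of the tested genes (22.2%). Changed genes were mostly named only where the groups did not overlap, so their separation below follows from that choice.

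Epithelial genes marked the tissue in every library, and other tissue was measurable beside it. Fabp2, the intestinal fatty acid binding protein, had a signal of 2516, 1855, 794 and 1809 in LPS mice 5 to 8 and 8023, 10570, 8885 and 6510 in PBS mice 1 to 4. Tff2, Muc6 and Gkn3, made by stomach and by the glands of the first part of the duodenum, summed to 62.6, 14.4, 856 and 867 in the LPS mice and 941, 65.1, 213 and 1761 in the PBS mice. These sums were high in 2 mice of each group and did not separate the groups. Fabp6, the ileal bile acid binding protein, was lowest in LPS mouse 6. The summed signal of 9 ileal genes, Fabp6 among them, was 550 to 1773 in LPS mice and 1915 to 2443 in PBS mice, so these sums did separate the groups. Of the 8 ileal genes tested 5 fell and 0 rose (median -1.02). Whether the stretch taken differed between the groups was not tested. LPS mouse 7 stood apart in the absorptive genes, and its log2 values correlated least with the PBS libraries (Pearson's r across genes 0.909 to 0.916, against 0.932 to 0.951 for the other 3 LPS mice). Results are therefore also given without mouse 7, or without the 4 mice with high gastric sums (mice 1, 4, 7 and 8, which leaves 2 libraries a side, a setting chosen after the data were seen), where that ended the call of a named gene or moved a list's count by 2 or more genes and over 1.5 times. Without those 4 mice 523 genes rose and 955 fell. They were picked by the summed signal of 3 stomach genes, among the LPS and PBS mice only. TNF-deficient mouse 10, with the highest such sum (713.6), stayed in the fit, as did mouse 11 (101.5). With 2 libraries a side calls are also lost through the smaller number, and no other set of 4 mice was left out. A lost call therefore cannot be traced to the gastric sums. The hepatocyte marker Alb stood at 354, 380, 352 and 311 in LPS mice and 325, 329, 344 and 348 in PBS mice, and 10 hepatocyte markers together at 543 to 607 in LPS mice and 547 to 566 in PBS mice. The part of RNA from other tissue in the results below was not tested.

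Secreted antimicrobial lectins of the Reg3 family, abundant transcripts of this epithelium, rose strongly. Reg3g, which kills Gram-positive bacteria (chromosome 6, 78466269 to 78468872, minus strand, GRCm38), had a signal of 6877, 5631, 5041 and 6939 in the LPS mice, against 365, 259, 456 and 628 in the PBS mice. Reg3b, which acts on Gram-negative bacteria, lies on the same chromosome (chromosome 6, 78370657 to 78373466, plus strand). It had 33450, 30880, 22900 and 37090 in the LPS mice and 2246, 1670, 3583 and 4108 in the PBS mice. In both genes every LPS library lay far above every PBS library. The log2 change was 3.90 for Reg3g (SE 0.20, limma adjusted p = 2.48e-11) and 3.49 for Reg3b (SE 0.24, limma adjusted p = 1.06e-09). The related lectin Reg3a moved the other way, with 85.5, 81.1, 87.7 and 105 in the LPS mice and 183, 220, 212 and 186 in the PBS mice (log2 change -1.15, limma adjusted p = 3.78e-05). The groups of Reg3a did not overlap. The sources used here do not say how reads shared by near-identical copies were counted, so values of single members of a gene family are uncertain.

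The start regions of Reg3b and Reg3g are shown because both of these related genes on chromosome 6 rose. The windows run from 250 bases before to 50 bases after the annotated start (RefSeq, GRCm38.p6), 5′ to 3′ on the strand of the gene, at chr6:78370635-78370934 on the plus strand and chr6:78468825-78469124 on the minus strand. Capitals mark matches to TTCNNNGAA, the palindrome of STAT binding elements, and to GAAANNGAAA, the core of the interferon-stimulated response element, searched on both strands.
Reg3b: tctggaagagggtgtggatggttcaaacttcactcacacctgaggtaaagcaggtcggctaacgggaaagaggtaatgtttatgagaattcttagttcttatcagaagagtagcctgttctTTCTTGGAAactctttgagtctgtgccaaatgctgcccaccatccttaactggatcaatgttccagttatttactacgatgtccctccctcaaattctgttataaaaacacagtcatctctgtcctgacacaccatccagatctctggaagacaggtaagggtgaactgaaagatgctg
Reg3g: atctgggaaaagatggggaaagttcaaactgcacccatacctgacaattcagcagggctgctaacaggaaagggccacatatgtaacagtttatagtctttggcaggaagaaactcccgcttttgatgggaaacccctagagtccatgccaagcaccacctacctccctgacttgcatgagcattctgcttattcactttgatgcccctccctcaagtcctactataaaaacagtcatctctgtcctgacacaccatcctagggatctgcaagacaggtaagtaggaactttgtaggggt
The Reg3b window held 1 match to TTCNNNGAA and the Reg3g window none, and neither held GAAANNGAAA. Of 32851 windows of the same length over all genes 8.30% held TTCNNNGAA and 3.44% held GAAANNGAAA. A match is a description of letters, not a site of binding.

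Other secreted or apical defence genes rose with them. Of 20 tested members of a list of induced epithelial defence genes 10 rose and 4 fell (median log2 change 0.83). Without the 4 mice with high gastric sums 9 rose and 2 fell. Duox2, an oxidase that releases hydrogen peroxide into the lumen, had 103, 46.6, 159 and 156 in the LPS mice and 23.9, 18.9, 16.9 and 28.2 in the PBS mice (log2 change 2.23, SE 0.26). All LPS libraries lay above all PBS libraries, with mouse 6 the lowest of the LPS mice. Its maturation factor Duoxa2 rose by 2.52 and Duoxa1 by 2.40, but these genes overlap at their 3′ ends on opposite strands and had nearly equal values in each library, so their counts cannot be told apart without strand. Fut2, which adds fucose to surface glycans, rose by 2.05 (SE 0.38). Saa3, an acute-phase apolipoprotein, had 1190, 1055, 1245 and 1108 in the LPS mice and 277, 286, 299 and 310 in the PBS mice, with little spread in either group (log2 change 1.97, SE 0.09). Lcn2, which binds bacterial siderophores, rose by 1.75 (SE 0.13), and Lypd8, which keeps flagellated bacteria off the epithelium, by 0.90 (SE 0.16). Pigr, which carries IgA across the epithelium, fell (-0.60), as did the lectin gene Reg4 (-0.93). Nos2, the inducible nitric oxide synthase, did not pass the test at 17.5, 4.03, 14.3 and 24.7 in LPS mice and 7.09, 8.40, 8.06 and 15.1 in PBS mice, and passed it without mouse 6 (0.92, limma adjusted p = 0.0385). The call of Pigr (-0.40, adjusted p = 0.0792) was lost in limma without the 4 mice with high gastric sums.

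Most of the other genes among the 15 largest rises had a low signal in PBS mice. Ly6a (Sca-1), a surface protein of stem and regenerating cells, stood out by its level, at 613, 428, 1068 and 1035 in the LPS mice and 122, 137, 143 and 144 in the PBS mice (log2 change 2.42, SE 0.20). LPS mice 7 and 8 were highest and mouse 6 lowest, and the groups did not overlap. Gml and Gml2, neighbouring genes of the Ly6 cluster on chromosome 15, rose together. Gml had 42.7, 36.8, 21.8 and 43.7 in the LPS mice and 0.886, 0.525, 0.733 and 2.01 in the PBS mice (log2 change 4.19, SE 0.35). Gml2 had 24.1, 20.7, 8.16 and 31.7 in the LPS mice and 0 in all 4 PBS mice, and was at least 8.94-fold higher with the PBS libraries set to a floor of 3 counts each. B3galt5, a glycan-building galactosyltransferase, had 51.2, 26.5, 96.6 and 90.9 in the LPS mice and 2.66, 3.15, 3.66 and 7.05 in the PBS mice (log2 change 3.62, SE 0.32). In this gene too LPS mice 7 and 8 were highest and mouse 6 lowest. Ifitm1, a membrane protein that restricts virus entry, had 218, 186, 224 and 211 in the LPS mice and 28.3, 26.8, 22.7 and 22.2 in the PBS mice, with a narrow spread (log2 change 3.02, SE 0.12). Akr1b8, an aldo-keto reductase, rose by 2.72, the secreted phospholipase Pla2g5 by 3.27 and Tifa, an adaptor in the activation of NF-kB, by 2.35. The granulocyte growth factor Csf3 rose by 2.27 and the matrix protease Mmp3 by 2.27.

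**Figure D1:**
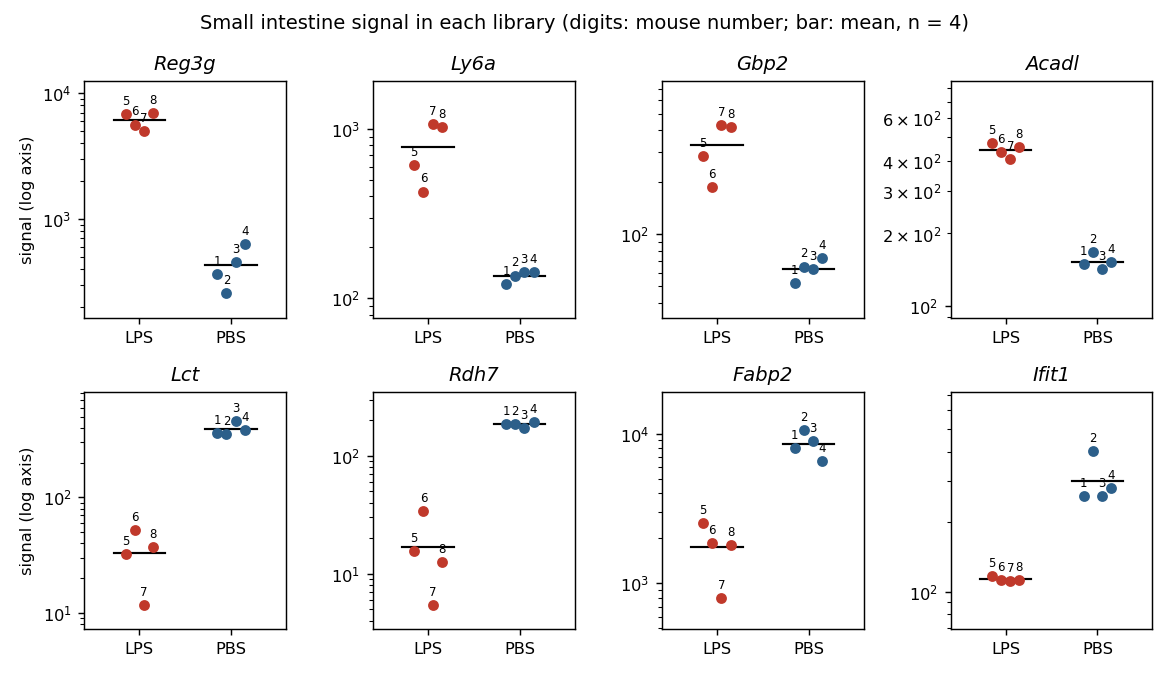
Signal of 8 genes in each small intestine library on log axes, LPS mice left and PBS mice right, with mouse numbers at the points and the mean of 4 as a bar. The groups do not overlap in any of the 8 genes, which was a condition for naming them. LPS mouse 7 is lowest for Lct, Rdh7 and Fabp2 and highest for Ly6a and Gbp2.

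Brush border enzymes fell nearly as a whole. Of 18 hydrolases and peptidases 17 fell and none rose, with a median log2 change of -1.83. Lct, lactase (chromosome 1, 128284756 to 128328318, minus strand), had a signal of 32.5, 51.8, 11.6 and 36.8 in the LPS mice and 364, 352, 459 and 384 in the PBS mice. Plb1, a phospholipase of the brush border (chromosome 5, 32232708 to 32366520, plus strand), had 5.42, 1.15, 4.08 and 9.78 in the LPS mice and 92.1, 74.6, 96.0 and 73.5 in the PBS mice. Every LPS library of each gene lay far below every PBS library, with mouse 7 lowest for Lct and mouse 6 for Plb1. The log2 changes were -3.68 for Lct (SE 0.32, limma adjusted p = 3.66e-08) and -4.01 for Plb1 (SE 0.31, limma adjusted p = 7.85e-09). Sis, sucrase-isomaltase, had 754, 835, 315 and 631 in the LPS mice and 1548, 1880, 1671 and 1670 in the PBS mice (log2 change -1.50, SE 0.23), so it fell by less than lactase, and mouse 7 was again lowest. Mgam, which digests starch fragments, had 916, 879, 566 and 734 in the LPS mice and 935, 912, 1094 and 1055 in the PBS mice. It was the member that did not pass the test (-0.39, limma adjusted p = 0.103). The disaccharidase Treh, which splits trehalose, had 13.8, 25.3, 2.04 and 15.5 in the LPS mice and 70.9, 82.4, 82.8 and 104 in the PBS mice (-2.85, SE 0.41).

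Peptidases and lipid enzymes of the brush border fell by differing amounts. Mme (neprilysin) changed by -3.08 (SE 0.26), the ceramidase Asah2 by -3.20 (SE 0.38), the proline-specific peptidase Xpnpep2 by -2.35 and angiotensin-converting enzyme Ace by -2.05. Anpep, aminopeptidase N, had 824, 690, 462 and 730 in the LPS mice and 1868, 1799, 2315 and 1988 in the PBS mice (-1.58, SE 0.17). Alpi, the intestinal alkaline phosphatase, which also removes phosphate from LPS, had 116, 190, 38.8 and 177 in the LPS mice and 446, 569, 372 and 533 in the PBS mice (-2.08, SE 0.30). The groups of both genes were separate. The summed signal of the 18 genes was 4339, 4204, 2201 and 3943 in LPS mice 5 to 8 and 8388, 9489, 10060 and 9427 in PBS mice. Mouse 7 had the lowest sum, and every LPS sum lay below every PBS sum. Without mouse 7 17 of the 18 fell, with a median of -1.61, and without the 4 mice with high gastric sums 17 fell, with a median of -1.56. In whole tissue, fewer cells of a type and less RNA per cell cannot be told apart.

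The cytoskeleton under the brush border fell by less. Of 16 structural genes 12 fell and none rose (median -1.01). Vil1 (villin), which bundles actin in microvilli, had 526, 524, 411 and 556 in the LPS mice and 1270, 1182, 1205 and 1201 in the PBS mice (-1.28, SE 0.13), with narrow, separate groups. The actin bundlers Espn (-1.88) and Pls1 (-1.16), the microvillus cadherin Cdhr2 (-1.60), the motor Myo7b (-1.09) and the membrane linker Ezr (-0.63) also fell. Eps8 did not pass the test at -0.08. Genes of the villus tip fell in 7 of 9 cases (median -1.0). Ada, adenosine deaminase, had 33.7, 60.4, 8.16 and 40.9 in the LPS mice and 219, 328, 174 and 206 in the PBS mice (-2.91, SE 0.35). Krt20, a keratin of mature enterocytes (-1.0), and Klf4, a factor of differentiated epithelium (-1.20), fell as well. The fall was not particular to the tip. Genes of the villus bottom fell in 5 of 8 cases and rose in 1 (median -1.48).

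Transporters for sugars, peptides and amino acids fell in 13 of 16 cases and rose in none (median -0.95). Slc15a1, the uptake route for small peptides, had 75.8, 70.7, 32.0 and 58.7 in the LPS mice and 222, 242, 281 and 226 in the PBS mice (-2.08, SE 0.20). Slc5a1, the sodium-coupled glucose transporter of the brush border, had 659, 659, 329 and 570 in the LPS mice and 893, 1034, 1128 and 1043 in the PBS mice (-0.93, SE 0.22). The groups were separate in both. Slc46a1, the folate carrier (-1.97), Slc2a2, the glucose exporter (-1.43), and Slc6a19, a carrier of neutral amino acids (-1.48), also fell. Slc2a5, the fructose carrier, had 37.9, 38.0, 6.12 and 27.6 in the LPS mice and 39.0, 37.8, 30.8 and 28.2 in the PBS mice and did not pass the test, with mouse 7 far below the other LPS mice. Without the 4 mice with high gastric sums 8 of the 16 fell, with a median of -0.79, and the call of Slc5a1 was lost in limma (-0.71, adjusted p = 0.102). Outside this list, the related carrier Slc5a4b (-3.58) and Cubn, the ileal receptor for vitamin B12 bound to intrinsic factor (-3.53), were among the 15 largest falls.

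Genes of fat uptake and chylomicron assembly fell in 16 of 26 cases and rose in none (median -0.72). The fatty acid binding protein Fabp2, whose values are given above, fell by 2.38 (SE 0.24) on the log2 scale. Its relative Fabp1 had 2458, 4938, 750 and 1629 in the LPS mice and 2969, 3855, 3099 and 3314 in the PBS mice, and did not pass the test, but did without mouse 6 (-1.19, limma adjusted p = 0.00174). Within the LPS group mouse 6 was highest and mouse 7 lowest. Apoc3, an apolipoprotein of chylomicrons, had 166, 208, 57.1 and 117 in the LPS mice and 597, 756, 629 and 616 in the PBS mice (-2.38, SE 0.29). Npc1l1, through which cholesterol enters the enterocyte (-1.84), and the triglyceride-building enzyme Dgat1 (-1.02) also fell. Apob did not pass the test at -0.40, nor did Cd36 at -0.12 or Apoa4 at -0.84 (-1.17 without mouse 6, limma adjusted p = 0.00343). With mice 1, 4, 7 and 8 left out 7 of the 26 fell, with a median of -0.41.

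Of 8 bile acid genes 4 fell and 1 rose, Nr1h4, the bile acid receptor FXR (0.74). With edgeR, with a pseudocount of 0.25, with no minimum on signal and without mouse 1, 2, 4 or 7 in turn 2 fell. With mice 1, 4, 7 and 8 left out 2 fell and none rose, and the call of Nr1h4 was lost in limma (0.59, adjusted p = 0.124). Fgf15, the hormone that ileal FXR induces, had 5.42, 3.45, 5.44 and 5.18 in the LPS mice and 17.7, 24.7, 35.9 and 22.2 in the PBS mice (-2.12, SE 0.29). Fabp6 had 842, 191, 630 and 956 in the LPS mice and 1361, 1576, 1139 and 1103 in the PBS mice (-1.20, SE 0.43). The groups did not overlap in these genes, but the call of Fabp6 was close to the threshold (limma adjusted p = 0.0481). It was lost with edgeR (-0.97, adjusted p = 0.0551), with a pseudocount of 0.25, with no minimum on signal, with median-of-ratios scaling, and rescaled to the total of the genes outside the pancreatic list (limma adjusted p = 0.0546 to 0.105). It was also lost without mouse 1, 2, 3, 4, 6 or 7 in turn (-1.27 to -0.68, limma adjusted p = 0.0512 to 0.182) and without the 4 mice together (-1.74, adjusted p = 0.0782 in limma). Slc10a2, the ileal bile acid importer, did not pass the test (-0.61), with 103, 22.4, 54.4 and 107 in the LPS mice and 76.2, 101, 111 and 86.6 in the PBS mice. How much ileum each library held was not given in the labels, and its part in these changes was not tested.

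Drug-metabolising enzymes fell in 23 of 29 cases and rose in 1 (median -1.53). Cyp3a25, a cytochrome P450, had 10.8, 12.7, 2.04 and 8.06 in the LPS mice and 73.5, 105, 69.6 and 84.6 in the PBS mice (-3.35, SE 0.34). Cyp2b10, a P450 induced through the receptor CAR, had 5.42, 4.03, 5.44 and 5.75 in the LPS mice and 56.7, 58.3, 30.0 and 62.4 in the PBS mice (-3.06, SE 0.28), and the glutathione transferase Gstm3 had 10.8, 18.4, 8.16 and 11.5 in the LPS mice and 128, 131, 90.1 and 114 in the PBS mice (-3.18, SE 0.23). In each of these genes the groups were far apart. Cyp3a11 (-2.79), Cyp2c55 (-3.09), Cyp2c68 (-3.05), the glucuronosyltransferases Ugt2b5 (-3.24) and Ugt2a3 (-3.10) and the drug exporter Abcb1a (-1.79) fell too. P450, transferase and carboxylesterase genes lie in clusters of close copies, so single members are uncertain. The nuclear receptor gene Nr1i2 (PXR), which drives many of them, did not pass the test (0.03). The member that rose was Mgst1, a microsomal glutathione transferase, with 674, 632, 465 and 668 in the LPS mice and 254, 319, 287 and 237 in the PBS mice (1.14, SE 0.13).

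Among the genes of vitamin A handling, Rdh7, a retinol dehydrogenase, had 15.7, 33.9, 5.44 and 12.7 in the LPS mice and 188, 187, 171 and 194 in the PBS mice (-3.63, SE 0.32). The PBS libraries were close to each other and all lay far above the LPS libraries. Of 11 genes of this list 4 fell and none rose, among them Lrat, which esterifies retinol (-1.39), and the retinal dehydrogenase Aldh1a1 (-1.28). With mice 1, 4, 7 and 8 left out 2 fell and 1 rose, and the call of Lrat (-0.89, adjusted p = 0.0989) was lost in limma. Aoc1, which breaks down dietary histamine and polyamines, fell by 3.32 (SE 0.26) on the log2 scale. S100g, the calcium carrier of the enterocyte, had 72.8, 48.3, 35.4 and 179 in the LPS mice and 375, 541, 200 and 427 in the PBS mice (-2.38, SE 0.33). The enzymes that make citrulline, which the gut exports for arginine synthesis, fell, with Oat at -1.78 (SE 0.12), Otc at -1.33 and Cps1 at -0.41, as did arginase 2, Arg2 (-2.14). Of this list of 15 genes 6 fell and 2 rose, among them glutamine synthetase Glul (1.05). The call of Cps1 (-0.43, adjusted p = 0.0507) was lost in limma without the 4 mice.

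Other metabolic genes rose. The acyl-CoA dehydrogenase Acadl had 474, 435, 407 and 454 in the LPS mice and 150, 167, 143 and 152 in the PBS mice (1.53, SE 0.10). Each group was narrow and the groups did not overlap. The thioesterase Acot1 rose by 1.73. Fatty acid oxidation genes as a list split, with 7 higher and 4 lower of 21 (7 and 2 without the 4 mice with high gastric sums). Hadh, a later enzyme of the same pathway, fell by 1.55 (SE 0.15). Of 22 cholesterol synthesis genes 14 rose and 2 fell (median 0.67). Lss, lanosterol synthase, had 36.1, 22.4, 37.4 and 45.5 in the LPS mice and 12.4, 9.97, 11.7 and 7.05 in the PBS mice (1.67, SE 0.25), with the groups apart. Without the 4 mice with high gastric sums 1 of the 22 rose and none fell, with a median of 0.45. Genes that glucocorticoids induce rose in 11 of 17 cases and fell in none (median 0.65). Fkbp5, a chaperone of the glucocorticoid receptor, had 282, 297, 242 and 272 in the LPS mice and 114, 98.2, 108 and 99.7 in the PBS mice (1.37, SE 0.12), beside Cebpd (1.46), Mt2 (1.30) and Zbtb16 (1.25). Asns, asparagine synthetase, had 163, 105, 192 and 192 in the LPS mice and 48.7, 51.5, 26.4 and 33.2 in the PBS mice (2.01, SE 0.19).

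**Figure D2:**
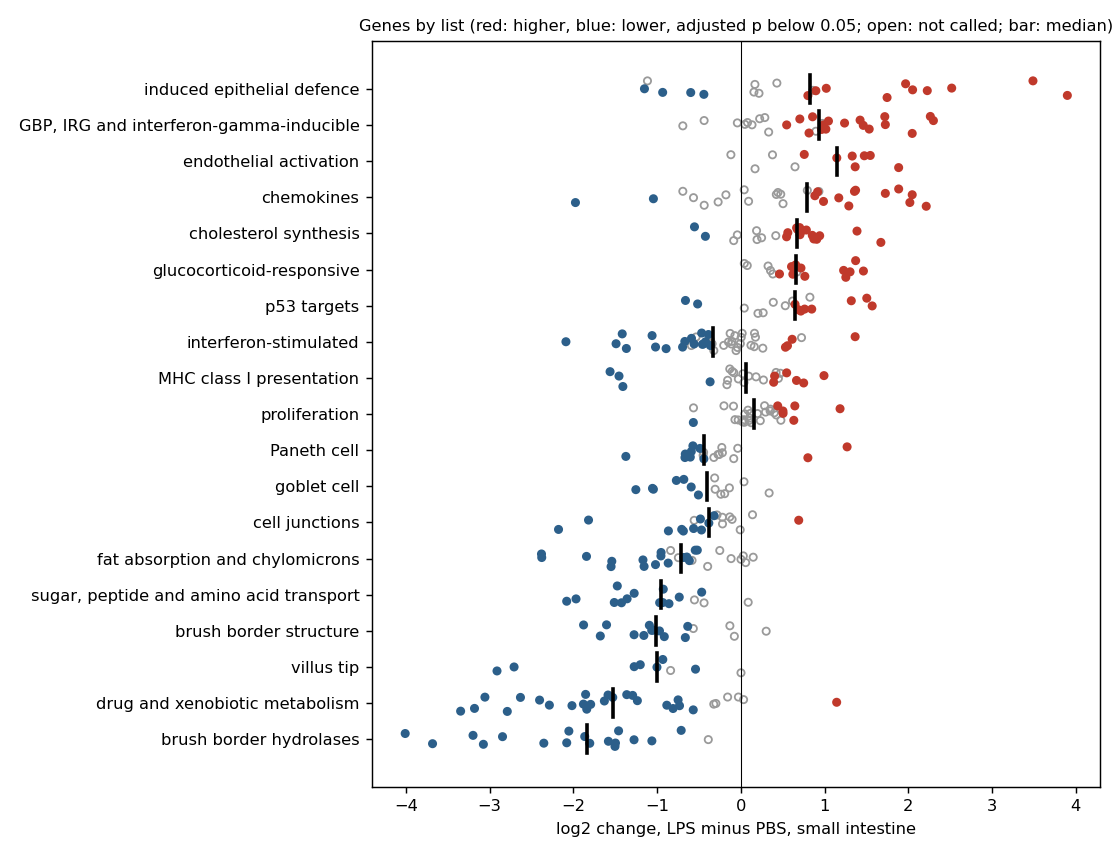
Log2 change of each tested member of 19 gene lists, LPS minus PBS, with called genes filled and the list median as a bar. Defence, guanylate-binding protein and endothelial activation genes lie to the right, and absorptive and drug metabolism genes to the left, with the brush border hydrolases at a median of -1.83.

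Genes commonly induced by interferons divided by family. Of 44 interferon-stimulated genes 17 fell and 4 rose (median -0.33). Of 28 guanylate-binding proteins, immunity-related GTPases and other genes typical of interferon-gamma 17 rose and none fell (median 0.93). LPS mouse 6 moved least. The median log2 difference from the PBS mean over these 28 genes was 0.92, 0.23, 1.26 and 1.03 in LPS mice 5 to 8. In the PBS mice it was -0.10 to 0.14. Ifit1, which binds viral RNA lacking a methylated cap (chromosome 19, 34640871 to 34650009, plus strand), had a signal of 117, 112, 111 and 112 in the LPS mice and 258, 401, 257 and 280 in the PBS mice. Isg15, a ubiquitin-like protein (chromosome 4, 156199424 to 156200818, minus strand), had 131, 108, 159 and 155 in the LPS mice and 271, 374, 227 and 259 in the PBS mice. PBS mouse 2 was the highest library for both, and each PBS library lay above each LPS library. The changes were -1.37 (SE 0.14) and -1.02 (SE 0.14). Gbp2, which attacks vacuoles of intracellular pathogens (chromosome 3, 142620602 to 142638008, plus strand), had 284, 189, 430 and 417 in the LPS mice and 52.3, 65.1, 63.0 and 72.5 in the PBS mice (2.30, SE 0.19).

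The start regions of Ifit1, Isg15 and Gbp2 are shown because Ifit1 and Isg15 fell and Gbp2 rose, while each window holds the same searched letters. The windows lie at chr19:34640639-34640938 on the plus strand, chr4:156200769-156201068 on the minus strand and chr3:142620413-142620712 on the plus strand (RefSeq, GRCm38.p6, 5′ to 3′ on the strand of the gene), with capitals marking GAAANNGAAA or its reverse complement.
Ifit1: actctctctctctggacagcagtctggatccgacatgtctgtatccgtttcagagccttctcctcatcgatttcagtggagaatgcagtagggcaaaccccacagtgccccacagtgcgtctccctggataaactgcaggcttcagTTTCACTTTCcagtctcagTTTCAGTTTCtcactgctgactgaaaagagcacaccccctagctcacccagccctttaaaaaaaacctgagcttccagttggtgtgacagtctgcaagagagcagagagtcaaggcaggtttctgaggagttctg
Isg15: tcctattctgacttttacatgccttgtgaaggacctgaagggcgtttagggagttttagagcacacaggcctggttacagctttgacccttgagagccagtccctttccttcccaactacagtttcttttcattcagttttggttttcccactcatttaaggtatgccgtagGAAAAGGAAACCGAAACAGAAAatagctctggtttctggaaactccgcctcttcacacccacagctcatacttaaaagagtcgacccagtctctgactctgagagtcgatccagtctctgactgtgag
Gbp2: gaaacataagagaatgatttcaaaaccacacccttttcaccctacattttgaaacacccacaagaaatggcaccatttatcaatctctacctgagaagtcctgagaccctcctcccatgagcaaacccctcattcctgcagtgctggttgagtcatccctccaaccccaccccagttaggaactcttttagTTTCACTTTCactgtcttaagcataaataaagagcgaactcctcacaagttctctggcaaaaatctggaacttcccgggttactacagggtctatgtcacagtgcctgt
The Ifit1 window held 2 matches, the Isg15 window 3 that overlap each other and the Gbp2 window 1. Among interferon-stimulated genes with a window 16 of 32 (50.0%) held GAAANNGAAA, among the guanylate-binding protein list 11 of 17 (64.7%), and among all 27025 genes with a window 3.99%. TTCNNNGAA was in the windows of 5 of 32 interferon-stimulated genes (15.6%), 8 of 17 of the guanylate-binding protein list (47.1%) and 9.55% of all genes. The windows shown of Ifit1, Isg15 and Gbp2 held no match to TTCNNNGAA.

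Within the interferon-stimulated list Ifit1bl1 had 53.6, 48.9, 46.2 and 73.1 in the LPS mice and 191, 316, 190 and 268 in the PBS mice (-2.09, SE 0.16), the largest fall of the list. The RNA helicase Ddx60 (-1.49), the nucleotide kinase Cmpk2 (-1.42), Oasl1 (-1.06) and Oasl2 (-0.89) of the oligoadenylate synthetase family, and the RNA sensors Ddx58 (-0.67) and Ifih1 (-0.59) also fell. Against the list, Ifit2 had 15.1, 15.5, 21.1 and 16.7 in the LPS mice and 3.54, 7.35, 5.86 and 8.05 in the PBS mice (1.36, SE 0.22), and Ifi27l2a rose by 0.61. The Ifit and Oas genes lie in clusters of similar copies. Rescaled to the total of the genes outside the pancreatic list, which moved the median of all genes to 0.14, 13 fell and 6 rose. Leaving out the 4 mice with high gastric sums, 15 fell and 2 rose, and without PBS mouse 2, the highest library of many of these genes, 13 fell and 5 rose. Among the genes that rose, the T cell attractant Cxcl9 had 157, 98.9, 375 and 253 in the LPS mice and 46.1, 50.9, 46.9 and 43.3 in the PBS mice (2.05, SE 0.25), and the GTPase Iigp1 had 219, 126, 310 and 287 in the LPS mice and 59.3, 77.7, 67.4 and 64.4 in the PBS mice (1.72, SE 0.20). In Gbp2, Cxcl9 and Iigp1 LPS mouse 7 was highest and mouse 6 lowest, all above the PBS mice. The transcription factor gene Irf1 did not pass the test (0.08).

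Genes of antigen presentation divided. Of 24 class I presentation genes 6 rose and 4 fell (median 0.07), whereas 3 rose and 3 fell without mouse 7, 4 and 4 without mouse 1, and 0 and 3 without the 4 mice with high gastric sums. The peptide transporter Tap1 rose by 0.75, and B2m did not pass the test (-0.17). Of the nonclassical genes, which are close copies, H2-Q1 (-1.56), H2-Q2 (-1.46) and H2-T3 (-1.41) fell. The nonclassical genes H2-Q6 and H2-Q7 were also called, and did not both fall. The call of Tap1 (0.54, adjusted p = 0.124) was lost in limma without the 4 mice with high gastric sums.

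Of 27 chemokine genes 12 rose and 2 fell (median 0.79). Cxcl13, which attracts B cells, had 158, 148, 159 and 132 in the LPS mice and 30.1, 41.0, 39.6 and 34.2 in the PBS mice (2.02, SE 0.12). Ccl2, which attracts monocytes, rose by 1.88, Ccl5 by 1.37 and the mucosal chemokine Ccl28 by 1.36. Ccl25, made by small intestinal epithelium to attract lymphocytes with CCR9, fell, with 150, 176, 99.3 and 136 in the LPS mice and 512, 608, 544 and 513 in the PBS mice (-1.98, SE 0.16). Il15, which maintains intraepithelial lymphocytes, had 5.42, 10.4, 5.44 and 5.75 in the LPS mice and 29.2, 33.6, 21.3 and 21.1 in the PBS mice (-1.84, SE 0.25). Il18bp, the decoy for IL-18, rose by 1.38 and the IL-1 receptor antagonist Il1rn by 1.21. Tnf did not pass the test at 12 h, with 4.82, 6.90, 4.76 and 8.06 in the LPS mice and 7.09, 6.83, 8.79 and 4.03 in the PBS mice (-0.09, SE 0.24), while its receptor genes Tnfrsf1a (0.56) and Tnfrsf1b (0.50) rose, the second of these not without mouse 3 (0.46, limma adjusted p = 0.0614) or mouse 7 (0.46, limma adjusted p = 0.068). The calls of Il1rn (0.59, adjusted p = 0.132), Tnfrsf1a (0.26, adjusted p = 0.299) and Tnfrsf1b (0.51, adjusted p = 0.157) were lost in limma without the 4 mice with high gastric sums. Of 16 genes of LPS sensing 6 rose, among them the co-receptor Cd14 (1.34) and Aoah, which deacylates LPS (1.50), and 1, Alpi, fell. Without mouse 7 or 8 4 of the 16 rose. Of 23 NF-kB targets 9 rose and 2 fell (4 and 1 without the 4 mice with high gastric sums), and of 28 acute phase and complement genes 14 rose and 1 fell. In the IL-22 and STAT3 list 9 of 17 rose and 3 fell (7 and 0 without those 4 mice). Its feedback inhibitor Socs3 had 88.5, 32.2, 103 and 109 in the LPS mice and 20.4, 16.3, 19.1 and 29.2 in the PBS mice (1.81, SE 0.26), again lowest among LPS mice in mouse 6. These lists share members with the defence and chemokine lists above.

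Crypt and secretory cell genes had smaller median changes than the absorptive genes. Of 19 Paneth cell genes 8 fell and 2 rose (median -0.44), and without the 4 mice with high gastric sums 2 fell and 3 rose. Lysozyme 1, Lyz1, had 9345, 8712, 6076 and 7497 in the LPS mice and 12520, 14120, 10260 and 10910 in the PBS mice (-0.60, SE 0.15). Mmp7, which activates the alpha-defensins of the mouse by cleavage, rose, with 592, 636, 433 and 423 in the LPS mice and 204, 225, 218 and 202 in the PBS mice (1.27, SE 0.12). The alpha-defensin genes are near-identical copies whose counts are uncertain singly. Goblet cell genes fell in 7 of 14 cases and rose in none (3 fell without the 4 mice). Clca1, a secreted mucus protease, fell by 1.25 (SE 0.18), the trefoil factor Tff3 fell too (-0.59), and the mucin Muc2 did not pass the test (-0.14). Enteroendocrine genes fell in 4 of 15 cases (1 without the 4 mice), among them Gip (-0.98) and Nts (-1.05), while Tac1 rose (1.12) and Chga did not pass the test (-0.07). The calls of Lyz1 (-0.42, adjusted p = 0.161), Tff3 (-0.43, adjusted p = 0.111) and Gip (-0.76, adjusted p = 0.0654) were lost in limma without the 4 mice with high gastric sums.

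Of 13 tested stem cell genes 4 rose and 3 fell, against 2 and 3 without the 4 mice with high gastric sums. Axin2, a direct target of Wnt signalling, had 16.9, 17.3, 20.4 and 13.2 in the LPS mice and 53.1, 97.1, 96.0 and 49.3 in the PBS mice (-2.01, SE 0.28). The stem cell gene Smoc2 rose by 0.54 and Sox9 by 0.45. Grem1, a stromal BMP antagonist that sustains the crypt, rose, with 135, 82.8, 131 and 128 in the LPS mice and 59.3, 49.9, 36.6 and 32.2 in the PBS mice (1.41, SE 0.21). Proliferation genes mostly did not pass the test, with 6 higher and 1 lower of 30 (median 0.16). Without mouse 1, 3, 4 or 7 in turn 4 rose, without the 4 mice 3 rose and none fell, and rescaled to the total of the genes outside the pancreatic list 10. The ribonucleotide reductase Rrm2 had 123, 119, 182 and 123 in the LPS mice and 61.1, 56.2, 54.2 and 63.4 in the PBS mice (1.18, SE 0.13), whereas Birc5 (survivin) fell by 0.57 and Mki67 changed by 0.02 without passing the test. Of 17 p53 targets 8 rose and 2 fell, with Aen at 1.32 and Ccng1 at 0.85. Among cell death genes the necroptosis genes Ripk3 (1.12, SE 0.19) and Mlkl (0.94) rose. The gasdermin Gsdmc4 had 14.5, 8.05, 11.6 and 15.0 in the LPS mice and 46.1, 54.6, 57.2 and 40.3 in the PBS mice (-1.95, SE 0.21), and Casp1, the inflammasome protease, fell (-0.87). Among 19 junction genes 10 fell, the largest changes being in the claudins Cldn4 (-2.18) and Cldn15 (-1.82), and 1, the pore-forming Cldn2, rose (0.69). The calls of Sox9 (0.45, adjusted p = 0.0992), Birc5 (-0.43, adjusted p = 0.166), Mlkl (0.44, adjusted p = 0.324) and Cldn2 (0.42, adjusted p = 0.206) were lost in limma without the 4 mice with high gastric sums.

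Transcripts of plasma cells, which make the IgA of the gut, were lower in LPS mice. The joining chain of secreted IgA, Jchain, had 204, 294, 201 and 218 in the LPS mice and 548, 740, 723 and 530 in the PBS mice, and the IgA heavy chain Igha had 928, 1221, 677 and 931 in the LPS mice and 2402, 2726, 2683 and 2054 in the PBS mice. The groups were separate in both (-1.47, SE 0.14, and -1.41, SE 0.14). Of 9 plasma cell genes 4 fell and 1 rose, the secretory pathway gene Fkbp11 (0.91), and rescaled to the total of the genes outside the pancreatic list 2 fell. Of 16 T cell genes 0 passed the test in limma and 0 in edgeR's quasi-likelihood test, with 1 at an unadjusted p below 0.05 in limma, and of 15 B cell genes 1 rose, Blk (1.33). Neutrophil genes rose in 2 of 18 cases, close to the share of all tested genes that rose, and in 1 without the 4 mice with high gastric sums. Ly6g had 7.83, 5.18, 11.6 and 13.2 in the LPS mice and 2.66, 2.10, 1.47 and 2.01 in the PBS mice (1.71, SE 0.33), while the abundant granule gene S100a8 stood at 68.6, 77.7, 70.7 and 75.4 in the LPS mice and 69.1, 57.8, 76.2 and 78.5 in the PBS mice. S100a8 overlapped between groups, as did the haemoglobin gene Hbb-bs, at 1394, 1431, 1372 and 1252 in the LPS mice and 1257, 1170, 1313 and 1398 in the PBS mice. Of 15 macrophage genes 6 rose and 2 fell (4 and 0 without the 4 mice with high gastric sums), with the mannose receptor Mrc1 at 43.9, 44.3, 32.6 and 39.7 in the LPS mice and 17.7, 15.2, 15.4 and 15.1 in the PBS mice (1.28, SE 0.20). The calls of Ly6g (1.42, adjusted p = 0.0579), Blk (1.06, adjusted p = 0.196) and Fkbp11 (0.70, adjusted p = 0.0662) were lost in limma without those 4 mice.

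Genes of endothelial activation rose in 7 of 11 cases (median 1.15). Selp, P-selectin, which slows passing leukocytes, had 17.5, 16.7, 18.4 and 17.8 in the LPS mice and 2.66, 3.15, 3.66 and 8.05 in the PBS mice (1.88, SE 0.37). The adhesion molecules Icam1 (1.55) and Vcam1 (1.15) rose too. With mice 1, 4, 7 and 8 left out 3 of the 11 rose, and the call of Icam1 was lost in limma (0.91, adjusted p = 0.0511). Smooth muscle genes fell in 5 of 12 cases and rose in 1 (3 fell without mouse 2). Fibroblast genes fell in 5 of 14 cases and rose in 4. Without the 4 mice 3 smooth muscle genes fell and none rose, and 3 fibroblast genes fell and 2 rose.

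Pancreatic enzyme transcripts, which small intestine libraries can carry from attached pancreas, are given apart. Their 22 measured genes summed to 1359, 958, 560 and 1015 in LPS mice 5 to 8 and 5607, 2848, 2915 and 1835 in PBS mice 1 to 4. Each LPS sum lay below each PBS sum, and PBS mouse 1 had by far the highest. The difference of the mean log2 sums was -1.71 (exact two-sided permutation test, p = 0.0286, the smallest that 4 against 4 allows). Spink1, a trypsin inhibitor that gut epithelium also makes, and Clps, the cofactor of pancreatic lipase, were the members with the highest signal. Spink1 had 441, 346, 179 and 364 in the LPS mice and 1064, 1225, 1367 and 1114 in the PBS mice, and Clps had 212, 224, 127 and 166 in the LPS mice and 798, 554, 479 and 410 in the PBS mice. Cpa1, a carboxypeptidase made by acinar cells, varied widely between PBS mice, with 19.3, 7.48, 8.84 and 13.8 in the LPS mice and 190, 57.2, 63.0 and 13.1 in the PBS mice. PBS mouse 4 lay within the LPS range. Without Reg2, Gp2 and Spink1 the sum was 848, 583, 373 and 613 in the LPS mice and 4523, 1618, 1539 and 713 in the PBS mice, the groups overlapped and the exact permutation p was 0.0571. Without LPS mouse 7 the exact p of the full sum was also 0.0571, although the groups stayed apart. A single member rose: Reg2, a lectin of the Reg family, had 64.4, 27.6, 6.80 and 32.2 in the LPS mice and 3.54, 0, 1.47 and 1.01 in the PBS mice (3.60, SE 0.66). With the pancreatic genes removed and the authors' scaling kept, 1324 genes rose and 1770 fell. Rescaled to the total of the remaining genes, 2305 rose and 1242 fell. On the authors' scale the signal of all genes summed to 957440 to 1006925 in the LPS libraries and 1058205 to 1153460 in the PBS libraries. With the rescaling the median of all genes stood at 0.14, and changes are here given on the authors' scale.

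**Figure D3:**
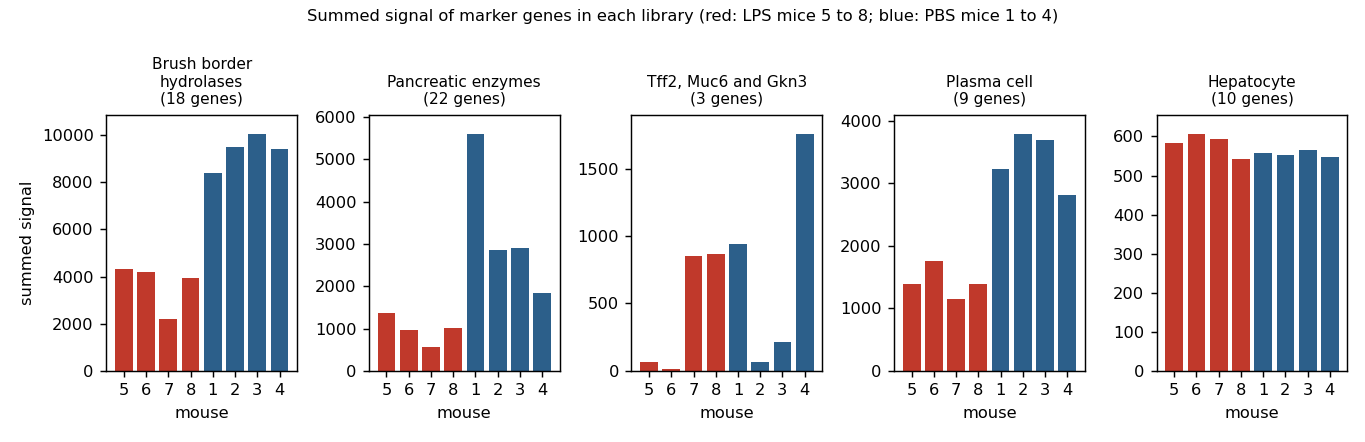
Summed signal of 5 marker lists in each library, LPS mice 5 to 8 at the left and PBS mice 1 to 4 at the right of each panel, axes starting at 0. Brush border and plasma cell sums separate the groups, Tff2, Muc6 and Gkn3 do not, and PBS mouse 1 has the highest pancreatic sum at 5607.

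Colon of the same mice, the nearest tissue of the series, was set beside it to test where the changes differed. The difference of the LPS changes (small intestine minus colon) was tested in 13134 genes, of which 384 had a positive difference (2.92%) and 788 a negative one (6.00%). In colon itself 1264 genes rose (9.45% of 13376 tested) and 1038 fell (7.76%). Of the 18 brush border hydrolases 14 had a negative difference and none a positive one. This count includes members with a low signal in colon, where a fall could hardly show, and they were not set apart. Lct stood at 2.19 ± 1.16 in LPS colons and 3.19 ± 2.64 in PBS colons (SD, n = 4 each), a signal so low that a change there is understated. Sis was measurable at 20.1 ± 2.83 in LPS colons and 22.8 ± 3.78 in PBS colons, and Fabp2 at 308 ± 39.8 in LPS colons and 566 ± 130 in PBS colons. The difference was -1.33 for Sis (SE 0.32) and -1.53 for Fabp2 (SE 0.30). That of Sis without the 4 mice with high gastric sums was -0.88 and did not pass the test (limma adjusted p = 0.254). Vil1 differed by -1.04 (SE 0.17), with a log2 change of -0.23 in colon that did not pass the test there. Reg3a, which fell in small intestine, rose in colon (1.33, difference -2.48, SE 0.48). Pancreatic enzyme genes were lower in both tissues, with a median log2 change of -1.64 in small intestine and -1.70 in colon. In colon 4 of 13 tested fell and 0 rose. Their difference between the tissues was negative in 1 of 13 and positive in 0 (median 0.07).

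Interferon-stimulated genes differed between the tissues in many cases, with 26 of 44 negative and 0 positive (median difference -0.91). Without the 4 mice with high gastric sums 10 were negative, with a median of -0.72. In colon Ifit1 averaged 210 ± 84.7 in LPS mice and 105 ± 26.0 in PBS mice, a log2 change of 0.92. The difference between the tissues was -2.29 (SE 0.28, limma adjusted p = 8.55e-07), and those of Isg15 and Ifit1bl1 were -1.60 (SE 0.22) and -3.07 (SE 0.27). The guanylate-binding protein list gave 2 negative and 3 positive differences (4 and 3 with the mouse as a replicate block, and none without the 4 mice), and neither Gbp2 (0.29, SE 0.29) nor Reg3b (-0.08, SE 0.32) passed the test of the difference. Proliferation genes had 9 negative differences of 30 (5 without mouse 3 and 5 without the 4 mice), with a median change of 0.78 in colon. The antiprotease Slpi (difference -4.30) and Wfdc18 (-4.59), of the same protein family, rose in colon and did not pass the test in small intestine, where Slpi averaged 9.62 ± 2.87 in LPS mice and 8.42 ± 2.16 in PBS mice (SD, n = 4 each). Tnf differed by -1.24 (SE 0.35, adjusted p = 0.0214 in limma), a call lost without mouse 1, 5 or 7 (-1.16, -0.99 and -1.13, limma adjusted p = 0.0593, 0.0966 and 0.0671). Among the largest positive differences, Ufsp1 had 30.7, 29.3, 19.7 and 48.3 in LPS small intestine and 5.31, 5.25, 5.86 and 9.06 in PBS small intestine (difference 2.60, SE 0.46), Ache, acetylcholinesterase, differed by 2.59 and the acyltransferase Mboat1 by 2.28. The calls of the difference of Ache (2.87, adjusted p = 0.0934), Mboat1 (1.40, adjusted p = 0.0719) and Tnf (-1.12, adjusted p = 0.153) were lost in limma without the 4 mice with high gastric sums. Ache and Ufsp1 are neighbours on chromosome 5.

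**Figure D4:**
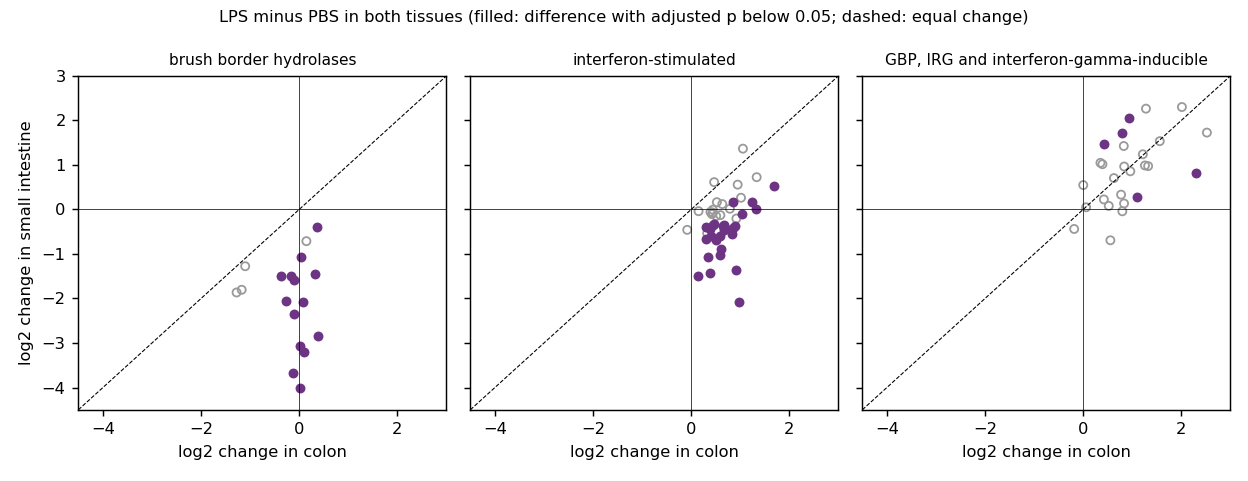
Log2 change LPS minus PBS in small intestine (vertical) against colon (horizontal) for 3 lists, with the dashed line at equal change and filled points where the difference passed the test. Most brush border hydrolases lie below the line near a colon change of 0, and members with a low colon signal, where a fall could hardly show, are included. Most interferon-stimulated genes lie below the line at positive colon changes, and guanylate-binding protein genes scatter around it.

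TNF-deficient mice given LPS are set beside these values as a description. Plb1 had 62.5, 50.4, 30.8 and 45.6 in mice 9 to 12 and Jchain had 476, 615, 642 and 618, all above the wild-type LPS libraries and, for Plb1, below the PBS libraries. Lct, at 44.7, 84.2, 48.0 and 137, and Reg3g, at 5632, 5331, 8163 and 9086, overlapped with the wild-type LPS libraries. The 3′ ends of Tnf were counted at 19.5, 18.0, 23.1 and 19.8 in the TNF-deficient mice, and whether the counted end lies inside the deleted stretch was not given, so these counts do not check the genotype.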

How the data were processed

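RNA was measured in whole small intestine and colon of 12 mice by sequencing 3′ transcript ends. The authors' deposited values are a signal, counts scaled to effective library sizes per gene. The submitters' processing notes name FastQC, MultiQC, edgeR and the build mm10, without versions. The aligner, the treatment of the 10-base molecular identifiers and the strand of counting are not given in the sources used here. Metadata rows (5) were skipped and 106 symbols had their hyphen restored. Whole counts could be recovered for 100% of values (tolerance 0.1 count).

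limma 3.58.1 (R 4.3.3), with a mean-variance trend, was fitted to log2(signal + 1) of the 12 small intestine libraries, for genes that reached a signal of 1 in 4 or more libraries. The difference from colon was the interaction over 24 libraries. The pancreatic sum was tested by an exact two-sided permutation of log2 sums. Alternatives were edgeR 4.0.16 (quasi-likelihood, recovered counts), size factors from DESeq2 1.42.0, a pseudocount of 0.25, no filter, the compared groups alone, removal of pancreatic genes, and leaving out libraries. The fits were tested on simulated data. Same-numbered libraries come from the same mouse per the labels, and deviations of the tissues of a mouse correlated at -0.0449 to 0.144.

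Members and gene lists were chosen with earlier results of these data known. Genes named are those with the 15 largest changes each way, the most changed and defining members of each list, and the largest differences from colon, among genes with a mean signal of at least 10, adjusted p below 0.05 and groups that do not overlap. Alb, S100a8 and Hbb-bs mark other cells, and further defining members are named whether they passed or not. Positions are from GENCODE M21 (GRCm38), which held 13555 of the 13820 symbols, and windows from RefSeq (GRCm38.p6), which had one for 16 of 20 defence, 32 of 44 interferon-stimulated and 17 of 28 guanylate-binding protein genes. Proteins were not analysed here, and some genes are not reported here.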

Additional observations from a re-analysis of the deposited data

Results flagged for a closer look

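In groups of 4 libraries a single library stood apart from the other 3, by its gap relative to the range of the group, in 18 of 342 groups of named genes. Chance alone flags about 1 in 20 groups. In the LPS group mouse 7 stood apart for Asah2 (signal 2.72), Glul (233), Mmp3 (40.1), Otc (59.2) and Rrm2 (182), mouse 6 for Fgf15 (3.45), Grem1 (82.8) and Il15 (10.4), and mouse 8 for Zbtb16 (8.06). In the PBS group mouse 2 stood apart for Cldn2 (63.0), Ifit1 (401), Lcn2 (141) and Oat (1015), mouse 1 for Mrc1 (17.7), mouse 3 for Apob (435), and mouse 4 for Lrat (23.2), Nos2 (15.1) and Ufsp1 (9.06). Ifit1 was called lower in LPS mice also without PBS mouse 2.

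The LPS change differed from that in colon of the same mice, by the interaction in limma, for each of 13 genes. The difference, small intestine minus colon on the log2 scale, was positive for Ufsp1 (2.60), Ache (2.59) and Mboat1 (2.28). It was negative for Wfdc18 (-4.59), Slpi (-4.30), Ifit1bl1 (-3.07), Reg3a (-2.48), Ifit1 (-2.29), Isg15 (-1.60), Fabp2 (-1.53), Sis (-1.33), Tnf (-1.24) and Vil1 (-1.04). The difference of Tnf was not called without mouse 1, 5 or 7, and those of Ache, Mboat1, Sis and Tnf were not called without mice 1, 4, 7 and 8.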

How the results depend on the processing

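Of 170 named genes 145 had the same call in every setting, and no direction was reversed. Without mice 1, 4, 7 and 8, a setting chosen after the data were seen, 523 genes rose and 955 fell. There 21 of the named calls were lost, and the difference from colon was positive in 129 and negative in 326 genes. That setting leaves 2 libraries a side, and no other set of 4 mice was left out. How many of these losses come from fewer libraries was not tested. With pancreatic genes removed and libraries rescaled to the total of the others, 2305 genes rose and 1242 fell. edgeR called 1265 higher and 1677 lower, median-of-ratios scaling 1450 and 1724, and the compared groups alone 1059 and 1578. Leaving out each library in turn gave 977 to 1408 higher and 1458 to 1832 lower genes, and 303 to 370 positive and 583 to 830 negative differences from colon. With the mouse as a replicate block 462 differences were positive and 937 negative, and the calls of the 15 genes named with a difference were the same. The pancreatic log2 difference was -1.54 without Reg2, Gp2 and Spink1 (exact permutation p = 0.0571), and -1.96 to -1.42 on leaving out each library (-1.47 without mouse 7, exact permutation p = 0.0571). The causes were not tested. Depth limits genes of a few counts, and 4 libraries a side the precision of the rest. On simulated data some of the smaller changes were missed.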
